A study of Mus musculus with 3 samples.

Results

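The circadian clock genes of the mouse heart were examined in 3 droplet single-cell RNA sequencing libraries. The members were 10 genes, taken by symbol from the matrices, of 30415 gene symbols in all: the activators Arntl, Clock and Npas2, the period genes Per1, Per2 and Per3, the cryptochrome gene Cry1, the REV-ERB genes Nr1d1 and Nr1d2, and the output gene Dbp. All 10 were found in every library under these symbols. Each library is 1 pool of 3 NOD/SCID hearts (a strain with severe combined immunodeficiency, lacking functional T and B lymphocytes). The animals had received pembrolizumab, an antibody against PD-1, atezolizumab, an antibody against PD-L1, or an isotype antibody on days 0 and 7, and hearts were taken on day 14. Titles and treatment tags disagree: Atezolizumab is tagged on PD1/PEM, and Pembrolizumab on PDL1/ATZ. Titles are used here as library names, and differences are assigned to no antibody. The sources used here give no age, sex or hour of harvest. With 1 library per group there is no replicate and no test between groups; every interval is a 95% interval that covers counting error only.

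The mammalian clock is a feedback loop of transcription. BMAL1, the product of Arntl, pairs with CLOCK or NPAS2 and activates the Per, Cry, Nr1d1, Nr1d2 and Dbp genes through E-box sequences. PER and CRY proteins then repress that activity, and the REV-ERB proteins repress Arntl and Npas2. DBP activates genes through D-box sequences, at which NFIL3 represses. In heart, as in other peripheral tissues, Nr1d1 and Dbp transcripts peak in the light phase, those of the Per genes follow, and those of Arntl and Npas2 peak at the opposite phase. Levels of these genes therefore depend on the hour at which a tissue is taken.

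Matches to short sequence motifs of this loop are shown for the members that held them near a transcription start. RefSeq promoter windows (build GRCm38.p6, 250 bases before to 50 after a start) were present for 9 of the 10 members, in 13 windows; Per2 had none. Searched on both strands were the E-box CACGTG, the D-box as TTATGTAA or TTACGTAA, and the core of the REV-ERB/ROR element as TAGGTCA or TGGGTCA. Matches are in capitals, and only the 250 bases before the start are printed. Per1 (E-box, chr11:69098699-69098948, plus strand), Cry1 (E-box, chr10:85185055-85185304, minus strand) and Per3 (2 copies of a D-box, chr4:151044666-151044915, minus strand) read as follows. Per3 was added to the printed set after its values were seen.
Per1: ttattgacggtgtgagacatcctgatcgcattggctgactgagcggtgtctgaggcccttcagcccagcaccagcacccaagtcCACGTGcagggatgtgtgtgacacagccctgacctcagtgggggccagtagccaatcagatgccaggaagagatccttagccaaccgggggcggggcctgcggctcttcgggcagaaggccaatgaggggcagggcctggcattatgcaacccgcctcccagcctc
Cry1: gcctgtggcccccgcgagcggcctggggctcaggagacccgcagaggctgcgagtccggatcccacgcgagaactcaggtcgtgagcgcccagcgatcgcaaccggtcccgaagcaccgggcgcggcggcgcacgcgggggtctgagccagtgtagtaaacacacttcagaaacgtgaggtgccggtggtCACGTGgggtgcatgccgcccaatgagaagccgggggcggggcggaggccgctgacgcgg
Per3: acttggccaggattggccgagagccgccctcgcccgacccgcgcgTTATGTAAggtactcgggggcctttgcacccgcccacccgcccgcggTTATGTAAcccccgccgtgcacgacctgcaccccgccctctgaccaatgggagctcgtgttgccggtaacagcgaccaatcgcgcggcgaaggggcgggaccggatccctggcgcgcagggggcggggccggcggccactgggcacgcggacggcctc
Arntl held a REV-ERB/ROR core 31 bases into the transcript from 1 of its starts (chr7:113207531-113207557, plus strand), in the stretch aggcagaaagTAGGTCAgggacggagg. Of the 9 members with windows, 2 held an E-box, 1 a D-box and 1 a REV-ERB/ROR core. Clock, Npas2, Nr1d1, Nr1d2 and Dbp held none of these, Per3 held no E-box, and bases outside the windows were not searched. An E-box was found in 7.15% of all 32851 windows of this length, a D-box in 1.06% and a REV-ERB/ROR core in 6.45%. Counted by gene, as for the members, 2187 of 27025 genes held an E-box, 333 a D-box and 1987 a REV-ERB/ROR core. A match is a description of the letters and not evidence of binding.

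Depth is given in UMIs (unique molecular identifiers, 1 for each captured transcript). Isotype had 16677883 UMIs in 9510 cells, PD1/PEM 14766346 in 6388 and PDL1/ATZ 15144668 in 11599. The PDL1/ATZ library stood apart. Its median share of mitochondrially encoded UMIs per cell was 8.04%, against 27.1% in isotype and 26.9% in PD1/PEM cells. It shared 0 cell barcodes with the others, which shared 23 with each other, and 2893 symbols had UMIs in it alone while 1942 had UMIs in the others alone. The labels give all 3 libraries the same protocol. Whether this library was prepared or annotated differently is not settled by the sources used here, and such a difference cannot be told apart from the group in any PDL1/ATZ ratio. Over all tested genes its median log2 ratio to isotype was 0.58, so its values are also given after median-of-ratios scaling, which sets the typical gene to about no change. All 7 listed cardiomyocyte markers were detected in each library, at a summed level of 27919, 21244 and 9104 CPM (UMIs of a gene for every 1000000 UMIs of the library) in isotype, PD1/PEM and PDL1/ATZ. In the same order, 5 atrial markers summed to 6050, 2462 and 3956 CPM, 8 endothelial markers to 2326, 2892 and 4050, 7 pericyte markers to 742, 819 and 1192, 8 fibroblast markers to 3562, 4036 and 2674, and 8 macrophage markers to 365, 465 and 535. Their part in the levels of the clock genes was not tested. In such sums fewer cells of a type and less RNA per cell cannot be told apart.

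Per1 was the member farthest from isotype in the PD1/PEM library. Levels are CPM over all deposited cells. Per1 (chromosome 11, 69095217 to 69109960, GRCm38), a period repressor that is also induced rapidly by hormonal and stress signals, stood at 73.8 in isotype (69.7 to 78.0), 146 in PD1/PEM (139 to 152) and 88.7 in PDL1/ATZ (84.1 to 93.6). The PD1/PEM level was 1.97-fold that of isotype (1.84 to 2.12), and the isotype and PD1/PEM intervals did not overlap. It was the only member of 10 at least 1.5-fold higher beyond counting error, which holds for 5.0% of the 14748 genes with at least 50 UMIs over both libraries, and its log2 ratio of 0.98 lay at the 99.1st percentile of these genes. No member was at least 1.5-fold lower, against 3.65% of all genes. With median-of-ratios scaling these shares were 4.76% and 3.91%, and Per1 was again the member called. At a 2-fold limit 0 members were called, beside 0.861% of genes higher and 0.454% lower. The median log2 ratio of the 10 members was 0.10, beside 0.01 for all tested genes.

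Among the members higher in PD1/PEM, Per3 and Dbp came next. Per3 (chromosome 4, 151003652 to 151044665), a period gene, was at 32.7 CPM in isotype (29.99 to 35.5) and 44.2 in PD1/PEM (40.8 to 47.7), 1.35-fold higher (1.20 to 1.52). Dbp (chromosome 7, 45705088 to 45710203), the D-box activator, was at 48.4 (45.2 to 51.9) and 63.6 (59.6 to 67.8), 1.31-fold higher (1.19 to 1.44). Neither reached 1.5-fold. Per2 (chromosome 1, 91415982 to 91459324), the third period gene, was at 61.2 and 68.6, a ratio of 1.12 (1.03 to 1.22).

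The REV-ERB genes did not move as a pair. Nr1d1, which encodes REV-ERB alpha (chromosome 11, 98767932 to 98775333), was at 40.3 CPM in isotype and 34.3 in PD1/PEM, 1.18-fold lower (1.05 to 1.32). Nr1d2, which encodes REV-ERB beta (chromosome 14, 18204054 to 18239127), was at 120 and 141, a ratio of 1.18 (1.10 to 1.25). Cry1 (chromosome 10, 85131700 to 85185064), a repressor of the activators, was at 31.1 and 31.3, and its ratio of 1.01 had an interval of 0.887 to 1.14.

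Of the activators, Arntl was the one farthest below isotype in the PD1/PEM library. Arntl (chromosome 7, 113207465 to 113314126) was at 8.63 CPM in isotype (7.28 to 10.2, 144 UMIs) and 6.16 in PD1/PEM (4.96 to 7.57, 91 UMIs), 1.40-fold lower (1.07 to 1.84). The 2 levels' own intervals overlapped. Clock (chromosome 5, 76209868 to 76304792) was at 61.1 and 53.0, 1.15-fold lower (1.05 to 1.27), and Npas2 (chromosome 1, 39193731 to 39363236), the paralogue of Clock, at 14.9 and 15.4, a ratio of 1.03 (0.856 to 1.24).

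**Figure D1:**
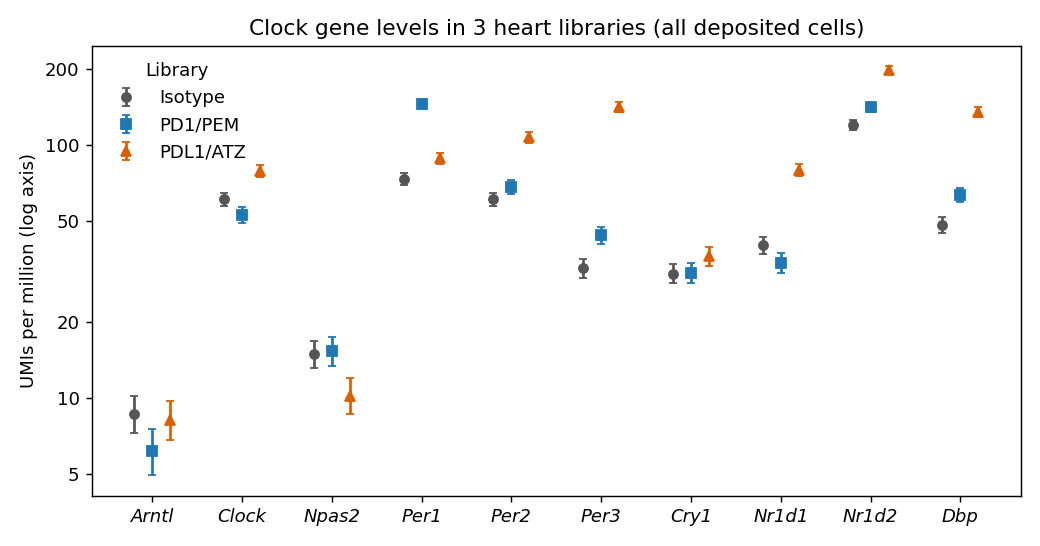
Levels of the 10 clock genes in CPM (vertical log axis) in the isotype, PD1/PEM and PDL1/ATZ libraries, with exact 95% Poisson intervals for counting error. Per1 is highest in PD1/PEM (146), while Per3 (142) and Dbp (136) are highest in PDL1/ATZ.

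The isotype and PD1/PEM cells were also divided at 25% mitochondrial UMIs, the band in which the 2 libraries can be compared on both sides. Per1 was 1.77-fold higher in PD1/PEM cells at or under the limit (1.55 to 2.01) and 2.07-fold higher in cells over it (1.90 to 2.25). The ratio of Arntl was 0.936 at or under the limit (0.594 to 1.47, 45 and 39 UMIs), where cells had to have at least 200 genes, and 1.65-fold lower in PD1/PEM cells over it (1.17 to 2.36, 99 and 52 UMIs). These 2 intervals overlap, and the difference between bands was not tested. The Arntl ratio pointed lower in both bands. Npas2 had opposite directions, at a ratio of 1.32 (1.01 to 1.73) at or under the limit and 0.798 (0.613 to 1.03) over it.

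Immediate early genes stood higher in the PD1/PEM library together with Per1. Of 11 immediate early genes, 6 were at least 1.5-fold higher and 0 lower (median log2 ratio 0.90), beside 5.0% and 3.65% of all genes. Egr1 stood at 843 CPM in isotype and 1946 in PD1/PEM, while Fos, Fosb and Jun had ratios of 1.12, 1.14 and 1.24. Of 6 glucocorticoid target genes 2 were called higher and 0 lower, Errfi1 at a ratio of 2.99 and Dusp1 at 2.13. Sgk1 was at 1.42, Zbtb16 at 1.09 (1.07 to 1.11), Tsc22d3 at 1.03 (0.980 to 1.08) and Fkbp5 at 0.897 (0.859 to 0.936). The list median log2 ratio was 0.31, with 5 of 6 above 0. Fos, Fosb, Jun, Fkbp5 and Tsc22d3 were named after their values were seen. In PDL1/ATZ 2 of the 11 immediate early genes were higher and 0 lower in CPM (median log2 ratio 0.11), beside 48.5% and 5.18% of all genes. After median-of-ratios scaling 0 were higher and 4 lower (median -0.51), beside 14.8% and 19.2% of all genes. Per1 there had a ratio of 1.20 in CPM (1.11 to 1.30) and 0.783 after that scaling (0.724 to 0.847). The part of these responses in the Per1 level was not tested.

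Per3 and Dbp were the members highest in the PDL1/ATZ library relative to isotype. Per3 stood at 142 CPM in PDL1/ATZ (136 to 148) against 32.7 in isotype, 4.33-fold higher (3.94 to 4.77), and Dbp at 136 (130 to 142) against 48.4, 2.80-fold higher (2.58 to 3.04). Nr1d1 was at 80.0, a ratio of 1.98 (1.80 to 2.18), Per2 at 108, a ratio of 1.76 (1.63 to 1.90), and Nr1d2 at 198, a ratio of 1.65 (1.56 to 1.74). These 5 of 10 members were at least 1.5-fold higher beyond counting error and 0 were lower. The same holds for 48.5% and 5.18% of the 15496 genes tested, so the count of 5 lies at the background and is no result about clock genes. At a 2-fold limit 2 members, Per3 and Dbp, were higher, beside 25% of genes higher and 2.48% lower.

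After median-of-ratios scaling, Per3 and Dbp were still higher in PDL1/ATZ, and Npas2 and Arntl were lower. Per3 was 2.82-fold higher (2.57 to 3.105) and Dbp 1.82-fold higher (1.68 to 1.98). Npas2, at 10.2 CPM in PDL1/ATZ (8.69 to 11.98), was 1.46-fold lower than in isotype in CPM (1.19 to 1.79) and 2.24-fold lower after scaling (1.83 to 2.76). Arntl, at 8.19 CPM (6.81 to 9.76), had a ratio of 0.948 in CPM (0.740 to 1.21) and was 1.62-fold lower after scaling (1.27 to 2.08). On this scale 2 of 10 members were higher and 2 lower, beside 14.8% and 19.2% of all genes. Both counts lie near the background and are no result about clock genes. Nr1d1 then had a ratio of 1.29 (1.17 to 1.42), Per2 of 1.14 and Nr1d2 of 1.07. In cells at or under 25% mitochondrial UMIs, by CPM, Per3 was 4.13-fold higher (3.54 to 4.84), Dbp 3.09-fold higher (2.69 to 3.56) and Npas2 1.97-fold lower (1.52 to 2.55). Clock, Per1 and Cry1 changed direction with the scaling: their log2 ratios were 0.38, 0.27 and 0.23 in CPM, -0.24, -0.35 and -0.39 after median-of-ratios scaling, and -0.19, -0.30 and -0.34 with TMM, another scaling to the typical gene.

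**Figure D2:**
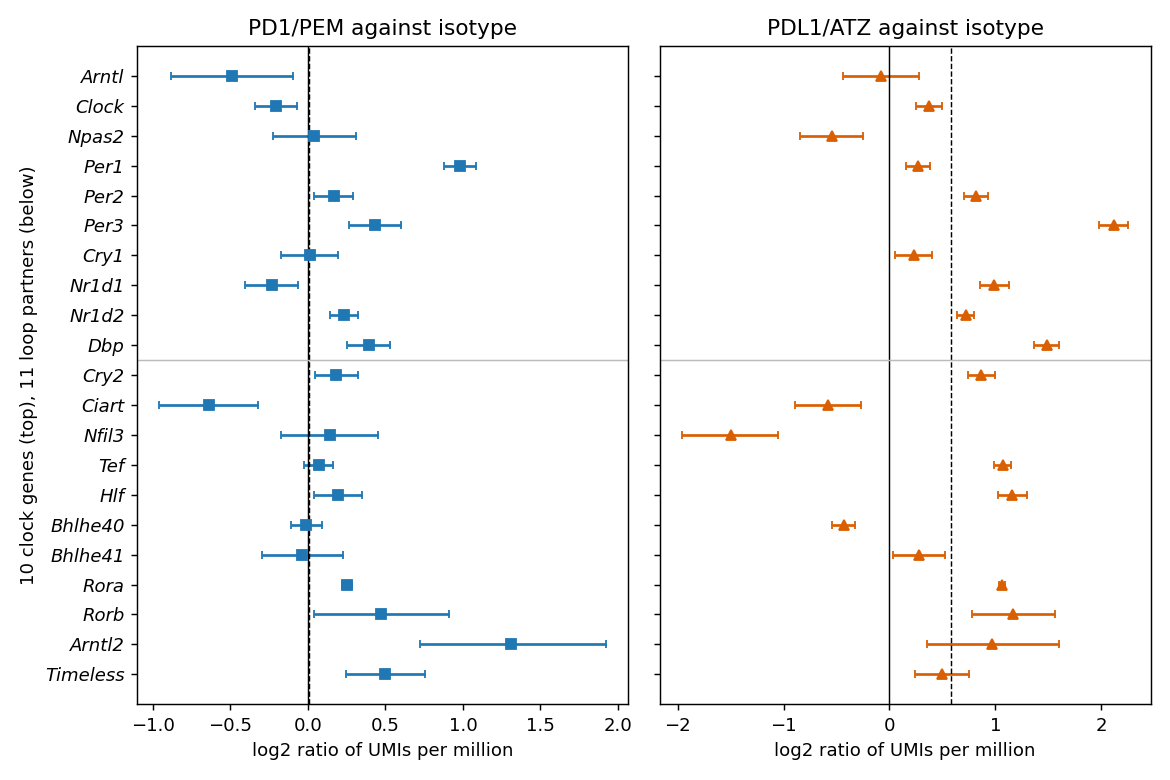
Log2 ratios of CPM to the isotype library with exact 95% counting intervals, for the 10 clock genes and 11 loop partners in PD1/PEM (left) and PDL1/ATZ (right); the solid line marks no difference and the dashed line the median of all tested genes (0.01 and 0.58). On the left the loop partner Arntl2 (1.30) is highest, followed by Per1 (0.98), the highest of the 10 clock genes. On the right Per3 (2.11) and Dbp (1.48) lie above the dashed line, and the lowest are Nfil3 (-1.49), Ciart (-0.58) and Npas2 (-0.54).

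Activators were set against their targets by the UMI ratio of each activator to each target within a library, set against the same ratio in isotype. This ratio of ratios does not depend on how a library is scaled. A value below 1 says that the activator was lower relative to the target, not that the 2 genes differed from isotype in opposite directions. The 3 activators and 6 targets (Dbp, Nr1d1, Nr1d2, Per1, Per2, Per3) give 18 pairs, which share genes and the isotype counts and so are not independent. In PD1/PEM 9 of 18 pairs were at least 1.5-fold lower beyond counting error and 0 higher. In PDL1/ATZ 14 were lower and 0 higher. No share over pairs of other genes was computed, so the counts are not shown to be particular to clock genes. Since the 2 comparisons share the isotype library, each is described by its own values.

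Arntl gave 9.69 UMIs for every 100 of Dbp in PD1/PEM, 6.04 in PDL1/ATZ and 17.8 in isotype. The ratio was thus 1.84-fold lower in PD1/PEM (1.38 to 2.46) and 2.95-fold lower in PDL1/ATZ (2.27 to 3.84). Npas2 gave 24.2, 7.55 and 30.8 UMIs for every 100 of Dbp in the same order, 1.27-fold lower in PD1/PEM (1.04 to 1.57) and 4.08-fold lower in PDL1/ATZ (3.27 to 5.10). Clock to Dbp was 1.51-fold lower (1.32 to 1.73) and 2.16-fold lower (1.92 to 2.43).

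The targets did not behave alike in the PD1/PEM library. Pairs with Per1 were the lowest for each activator, from 0.362 for Arntl (0.273 to 0.478) to 0.522 for Npas2 (0.428 to 0.636). The interval of every pair with Nr1d1 held no difference, at 0.839 (0.622 to 1.13) for Arntl, 1.02 (0.877 to 1.19) for Clock and 1.21 (0.972 to 1.51) for Npas2. In PDL1/ATZ the lowest pairs were those with Per3, 0.219 for Arntl, 0.299 for Clock and 0.158 for Npas2, and the pairs with Per1 were the highest, at 0.788, 1.08 and 0.570. In cells at or under 25% mitochondrial UMIs, the count in PD1/PEM was 4 lower pairs and 1 higher. The 4 were Arntl to Per1, Clock to Dbp, Clock to Per1 and Clock to Per3, and the higher pair was Npas2 to Nr1d1 (1.76, 1.23 to 2.50). Arntl to Dbp there was 0.652 (0.399 to 1.06). Whether the pools were taken at different clock phases was not tested, and the hour of harvest and the group cannot be told apart.

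**Figure D3:**
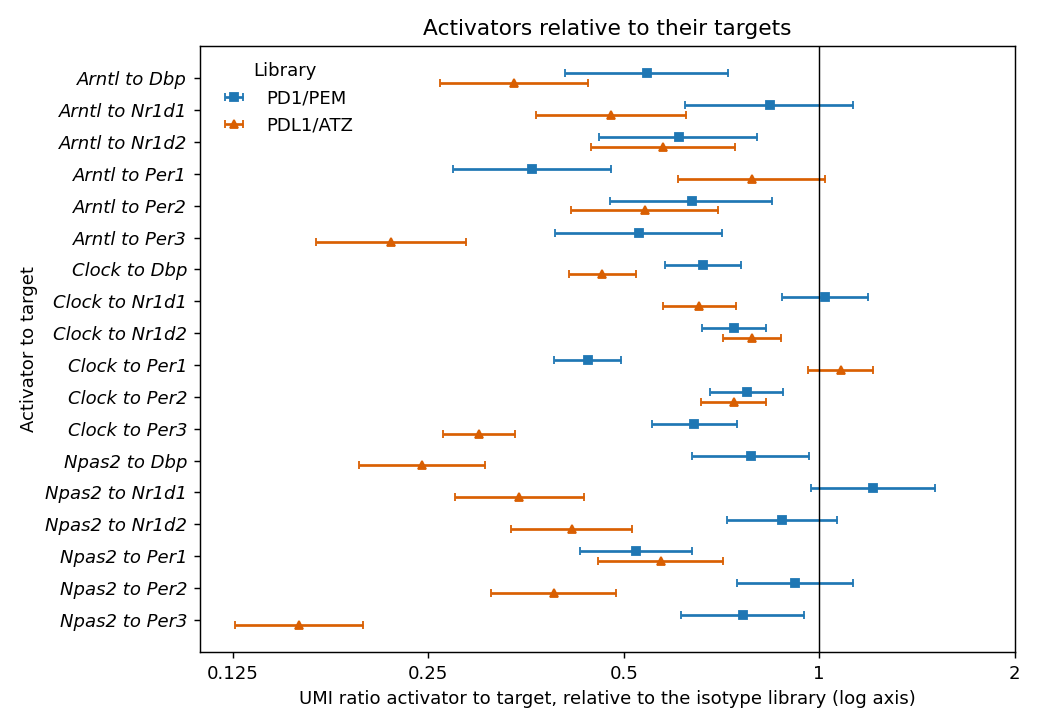
UMI ratio of each activator to each target relative to the same ratio in the isotype library (horizontal log axis, 1 is no difference), with exact conditional 95% intervals, for PD1/PEM and PDL1/ATZ. The lowest pair is Npas2 to Per3 in PDL1/ATZ (0.158), and in PD1/PEM the lowest is Arntl to Per1 (0.362).

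Genomic span and overlapping genes were measured beside these ratios. The 3 activators lie in the bin of longest spans, of 5 bins of tested genes (spans of 94.9 to 170 kb) and Dbp and Nr1d1 (5.12 and 7.40 kb) in the shortest. The median log2 ratio was higher in bins of longer span, from -0.04 to 0.07 in PD1/PEM and from 0.44 to 0.75 in PDL1/ATZ. Relative to the median of its own bin, Arntl was at -0.56 and Dbp at 0.44 in PD1/PEM, and Npas2 at -1.30, Arntl at -0.83, Dbp at 1.04 and Per3 at 1.47 in PDL1/ATZ. The annotated gene Camta1 spans all 41014 bases of Per3 on the same strand in GENCODE M21. Camta1 was at 242, 223 and 219 CPM in isotype, PD1/PEM and PDL1/ATZ. How the counting divided reads between the 2 genes, and whether this differed between libraries, is not stated in the sources used here, so the level of Per3 in PDL1/ATZ is uncertain. Nr1d1 shares 1075 bases with Thra on the opposite strand, and Thra was at 74.5, 67.0 and 116 CPM in the same order. Dbp shares 737 bases with Sphk2 on the opposite strand, which was at 5.46, 5.15 and 7.73.

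Among 11 loop partners of the members, Arntl2 was at least 1.5-fold higher and Ciart lower in the PD1/PEM library. Of all genes 5.0% were higher and 3.65% lower. Arntl2, a paralogue of Arntl, was at 2.16 CPM in isotype and 5.35 in PD1/PEM (36 and 79 UMIs), 2.48-fold higher (1.65 to 3.79). Ciart, which encodes the BMAL1 repressor CHRONO, was at 13.8 and 8.87, 1.55-fold lower (1.25 to 1.94). Timeless had a ratio of 1.41 (1.19 to 1.68), and Rora, which encodes a receptor that activates at the elements REV-ERB represses, of 1.19 (1.17 to 1.22). The list had a median log2 ratio of 0.18.

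In PDL1/ATZ, 6 loop partners were at least 1.5-fold higher and 1 lower in CPM, and 0 higher and 3 lower after median-of-ratios scaling. The shares of all genes were 48.5% and 5.18% in CPM and 14.8% and 19.2% after scaling, so the 6 of 11 lie near the background. Nfil3, the repressor at D-boxes, had 56 UMIs in PDL1/ATZ against 174 in isotype, a level of 3.70 against 10.4 CPM, and was 2.82-fold lower (2.08 to 3.88), or 4.34-fold lower (3.19 to 5.97) after that scaling. Tef and Hlf, which encode the other D-box activators of the Dbp family, were 2.10-fold (1.99 to 2.22) and 2.23-fold (2.04 to 2.45) higher in CPM, and 1.37-fold and 1.45-fold higher after scaling. The others lower after scaling were Ciart, 2.29-fold, and Bhlhe40, 2.07-fold. Nfil3, Tef, Hlf and Bhlhe40 were named after their values were seen.

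Genes of clock protein turnover, such as casein kinases and F-box ligases, gave 0 called genes of 7 tested in PD1/PEM (median log2 ratio 0.08). Of all genes 5.0% were higher and 3.65% lower there. Csnk1d, a kinase of PER proteins, had a ratio of 1.28 (1.18 to 1.39), and Gsk3b of 1.11. In PDL1/ATZ 2 of the 7 were higher and 0 lower in CPM, and 0 higher and 1 lower after median-of-ratios scaling. The shares of all genes were 48.5% and 5.18% in CPM, and 14.8% and 19.2% after that scaling. Of 11 genes whose levels are known to follow the clock in heart or other tissues, 0 were called in PD1/PEM (median -0.12), where Usp2 was 1.33-fold lower (1.24 to 1.43), Dgat2 1.33-fold lower, Klf15 1.24-fold lower and Tspan4 had a ratio of 1.20. In PDL1/ATZ 6 of the 11 were lower and 1 higher, beside 5.18% and 48.5% of all genes, with a median log2 ratio of -0.73 for the list and 0.58 for all genes. After median-of-ratios scaling 9 were lower and 0 higher, beside 19.2% and 14.8% of all genes. Usp2, at 64.2 against 115 CPM in isotype, was 1.79-fold lower in CPM (1.65 to 1.93) and Klf15 1.66-fold lower (1.41 to 1.95). After scaling they were 2.74-fold (2.54 to 2.97) and 2.55-fold (2.17 to 2.99) lower. Of the 6 glucocorticoid targets 2 were lower and 0 higher there in CPM. After scaling 5 were lower and 0 higher (median log2 ratio -1.05), beside the same 19.2% and 14.8% of all genes. The summed cardiomyocyte markers were lowest in this library. Their part in the output genes was not tested. Of the cold-induced genes Cirbp and Rbm3, markers of tissue temperature, 0 were called in PD1/PEM. In PDL1/ATZ Cirbp was 1.67-fold higher in CPM (1.49 to 1.88), with a ratio of 1.09 after scaling (0.968 to 1.22), and Rbm3 had ratios of 1.14 and 0.739.

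Cells at or under 25% mitochondrial UMIs with at least 200 genes were clustered jointly, with the clock genes left out, into 12 clusters, and sums of at least 100000 UMIs are described. Isotype and PD1/PEM could be compared in 4 clusters, and isotype and PDL1/ATZ in 2. Cluster 4 was cardiomyocyte-like by 3 of the 7 listed markers (Ryr2, Actn2, Rbm20), with Fgf12 and Ryr3 among its leading genes. The sarcomere gene Ttn stood at 16696, 16113 and 7460 CPM there in isotype, PD1/PEM and PDL1/ATZ. In the unnamed cluster 1 it stood at 17089, 16829 and 12696, so high Ttn was not particular to cluster 4. Cluster 5 was fibroblast-like, led by Fmod, with Col1a1 among its leading genes. Cluster 8 was macrophage-like and cluster 11 mesothelial-like, both described for PDL1/ATZ only. Clusters 3 and 12 held at least 3 markers of 1 type (pericyte and cardiomyocyte), but had more markers of another type among their 10 leading genes and stayed unnamed. The other 6 clusters had at most 1 marker of any type.

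Per1 had a ratio above 1 in each of the 4 clusters where PD1/PEM and isotype could be compared. It was 1.97-fold higher in cluster 2, the unnamed cluster with 68.0% of the clustered isotype cells and 66.4% of those of PD1/PEM (1.65 to 2.35), and 1.65-fold higher in the cardiomyocyte-like cluster (1.19 to 2.31). The ratio was 1.39 in cluster 1 (1.05 to 1.85) and 1.76 in the fibroblast-like cluster, where the interval held no difference (0.870 to 3.78). Egr1 was also higher in each of these clusters, with ratios of 1.84 to 2.30. Dbp had ratios of 1.24 to 1.76 in the same 4 clusters and was at least 1.5-fold higher beyond counting error in cluster 1. Per3 was 1.91-fold higher in cluster 1 (1.30 to 2.84) and 1.88-fold in the cardiomyocyte-like cluster (1.16 to 3.11), Nr1d2 1.52-fold in cluster 1 and Per2 1.54-fold in cluster 2. Nr1d1 was 1.54-fold lower in cluster 2 (1.13 to 2.12), and Cry1 1.95-fold lower in the cardiomyocyte-like cluster (1.09 to 3.58). Arntl had 1 to 26 UMIs per sum in these clusters and none of its ratios excluded no difference. RNA from other cells was not removed from these sums. The atrial peptide gene Nppa had ratios of 0.311 to 0.352 in all 4 clusters, the fibroblast-like one included, and the sarcomere gene Ttn stood at 6859 and 4944 CPM in fibroblast-like isotype and PD1/PEM cells. The part of such RNA in the cluster values of the clock genes was not tested.

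Npas2 stood at 36.3 CPM in cardiomyocyte-like isotype cells (24.3 to 52.1) and 61.0 in those of PD1/PEM (46.1 to 79.2), a ratio of 1.68 (1.06 to 2.73). In cluster 1 it stood at 26.5 (18.0 to 37.5) and 33.0 (22.8 to 46.1), with intervals that overlap those of the cardiomyocyte-like cells in isotype. In cluster 2 it stood at 14.3 and 14.2, and in the fibroblast-like cluster 1 UMI was read in each library. In PDL1/ATZ its level ran from 4.57 in the macrophage-like cluster (0.553 to 16.5) to 59.0 in the unnamed cluster 12 (25.5 to 116), whose cardiomyocyte markers at least 2-fold higher were Ttn, Ryr2 and Rbm20 and which rests on 46 cells. Only 1 Npas2 UMI was read in the 46 PDL1/ATZ cells of cluster 4.

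Over 10 clusters of PDL1/ATZ, Per3 ran from 59.0 CPM in cluster 12 to 189 in cluster 9, with a median of 153, and Dbp from 95.7 in cluster 1 to 152 in cluster 6, with a median of 123. In isotype the highest sums over 4 clusters were 37.5 for Per3 and 75.4 for Dbp. In the 2 clusters that PDL1/ATZ shared with isotype at this depth, Per3 was 2.88-fold (1.70 to 4.78) and 5.27-fold (2.87 to 9.60) higher and Dbp 2.55-fold (1.47 to 4.31) and 2.42-fold (1.17 to 4.74) higher, in clusters 1 and 4. In cluster 4 Nr1d2 was 1.88-fold higher (1.22 to 2.85) and Per2 was lower, where 2 UMIs gave a ratio of 0.192 (0.0228 to 0.724). These ratios are in CPM, without median-of-ratios scaling. They rest on 96 PDL1/ATZ cells in cluster 1 and 46 in cluster 4, with 23 and 13 Dbp UMIs. Macrophage-like PDL1/ATZ cells held Ttn at 1516 CPM and Nppa at 1306, genes of muscle cells, so like levels of Per3 and Dbp across these clusters cannot be read as expression by each cell type.

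**Figure D4:**
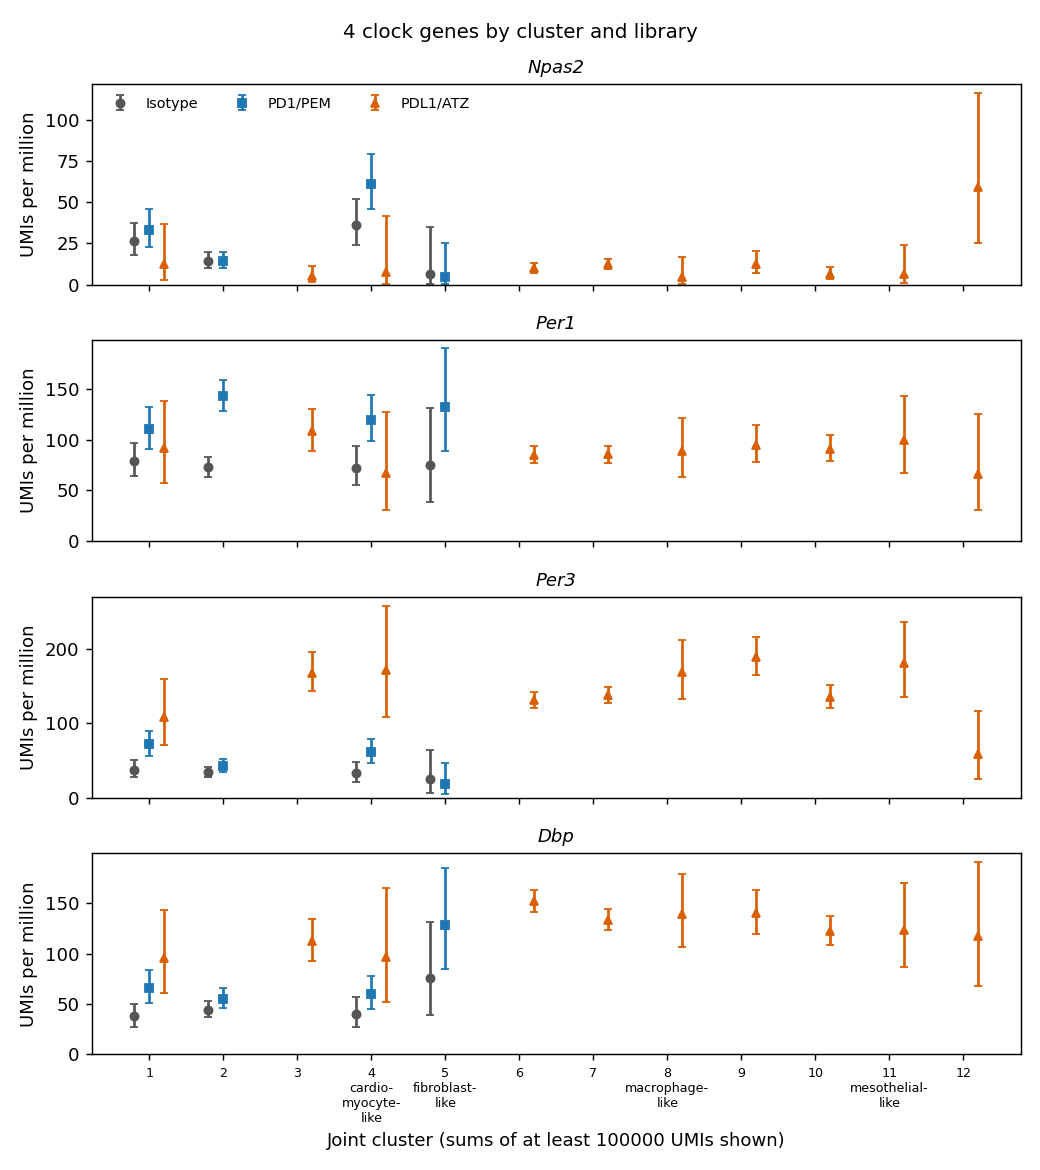
Levels of Npas2, Per1, Per3 and Dbp in CPM by joint cluster and library with exact 95% Poisson intervals; a point is drawn where the library's cells in that cluster hold at least 100000 UMIs. Npas2 is highest in PD1/PEM cells of cluster 4 (61.0) and in cluster 12 (59.0), and Per1 is higher in PD1/PEM than in isotype in clusters 1, 2, 4 and 5.

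The genes whose pattern over the 18 sums of clusters within libraries was most like that of Dbp were Trim5, Rpl10 and Grcc10, with Pearson r of 0.947, 0.944 and 0.919 across 9097 genes. All 3 were higher in PDL1/ATZ, with log2 ratios of 1.63, 1.70 and 2.75, and 10 of the 18 sums come from that library. Among the members, Nr1d2 (0.651) and Per3 (0.633) were most like Dbp, and Npas2 least (-0.541). For Arntl the 3 nearest genes were Fam32a, Rest and Slc25a30 (0.922, 0.920 and 0.913), but the sums held a median of 6.5 Arntl UMIs, so this order is weak.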

How the data were processed

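RNA of pooled hearts was captured with 10x Genomics 3′ chemistry, per the labels' protocols. Cell Ranger, Seurat and the build mm10 were used, per the submitters' processing notes. The sources used here do not give versions, annotation, intron setting or cell filters. Deposited cells had at most 2499 genes and 30.0% mitochondrial UMIs, so cells beyond these values are absent from every level given here. Each library's deposited matrix holds counts, as whole-number UMIs per gene and cell. Depths stand in the report.

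UMIs were summed over all deposited cells and scaled to 1000000 per library (CPM). Levels have exact Poisson intervals, ratios exact conditional binomial intervals and ratios of ratios exact conditional odds ratio intervals, all at 95%. A gene was called when at least 1.5-fold apart with an interval excluding no difference, among genes with at least 50 UMIs over both libraries. Log2 ratios use a pseudocount of 0.5. Against PDL1/ATZ, symbols with UMIs on 1 side only were left out. Counting ignores variation between hearts, so intervals are too narrow for the groups.

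Clustering used scanpy 1.11.5 on counts scaled to 10000 per cell: 2000 genes variable across libraries, 30 components, 15 neighbours, Leiden resolution 1, without batch correction. Doublets were not called; the 5% of cells with the most UMIs were left out as an alternative. A cluster was named from at least 3 markers of 1 type with 10 UMIs and a 2-fold ratio, unless another type tied or had more of the 10 leading genes. Named genes were all members, up to 4 genes per list by interval bound in PD1/PEM, and the 3 genes most like Dbp and Arntl. Genes of these lists named beyond that limit are marked as such. TMM factors came from edgeR 4.0.16. On simulated counts with 200 genes changed 2-fold, the call recovered 100% for PD1/PEM (14770 genes) and 99% for PDL1/ATZ (14754 genes). Of unchanged genes 0.721% and 0.797% were called. Both sides were drawn from the isotype profile with counting error alone. The simulation therefore says nothing about variation between pools or a shift of a whole library. The members and lists were chosen with earlier results of these data known. One loop partner is not reported here.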

Additional observations from a re-analysis of the deposited data

How the results depend on the processing

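With 1 library per group the spread between pools is unknown, and leaving out a replicate was not possible. Depth limits Arntl most among the members, at 91 to 144 UMIs per library. No paired analysis was possible because each group is 1 library, so the groups share fewer than 2 replicate numbers. In PD1/PEM the count of 1 higher member held under every setting except a 2-fold limit, which gave 0. The count of lower members, 0, became 1 (Arntl) in cells over 25% mitochondrial UMIs, without the 5% of cells with the most UMIs, and with cells thinned to 700 UMIs. Of 18 activator to target pairs, 9 were lower and 0 higher, against 4 lower and 1 higher in cells at or under 25% mitochondrial UMIs. In PDL1/ATZ the 5 higher members became 3 with scaling to UMIs of nuclear genes, 2 with TMM or median-of-ratios scaling and 2 at a 2-fold limit. The lower members, 0, became 1 (Npas2) in cells at or under 25% mitochondrial UMIs and with nuclear-gene scaling, and 2 (Arntl and Npas2) with TMM or median-of-ratios scaling. The cause was not tested. Of all genes tested in PDL1/ATZ, 48.5% were higher and 5.18% lower in CPM, 28.8% and 10.4% with nuclear-gene scaling, and 17.0% and 17.2% with TMM. Of the single values, 12 moved beyond their counting interval and 86 did not in PD1/PEM, and 38 and 47 in PDL1/ATZ; 0 called values changed sign. For PDL1/ATZ, 9 cells exceeded 25% mitochondrial UMIs, too few for that setting.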
